A study of Homo sapiens with 32 samples.

Results

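NOS3 encodes endothelial nitric oxide synthase, and its reads were followed in 32 libraries from HepG2 cells, a human liver cancer line with many hepatocyte features. It is 1 gene of the 13133 in the table of normalized reads, and it was chosen by its own values in these libraries, namely its levels at 12 and 24 h in cells kept in medium. For that reason all levels in medium, and all NOS3 comparisons that use them, are given here as a description without a test. Tests of NOS3 compared only libraries exposed to coated silver. The limma estimate of the spread, however, came from all 32 libraries, those in medium included. Cells were either given no nanoparticles (NoNP, dose 0) or silver nanoparticles at 1.2 ug/mL coated with citrate, with polyethylene glycol (PEG) or with branched polyethylenimine (bPEI). They were lysed after 6, 12 or 24 h, which gives 12 groups with 3 libraries each, except 2 in NoNP at 24 h, bPEI at 24 h, PEG at 6 h and citrate at 6 h. All groups share the same cell line and the same assay, TempO-Seq, in which pairs of detector oligos are ligated on an RNA target and counted by sequencing.

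Nitric oxide synthases convert arginine to citrulline and nitric oxide, using oxygen, NADPH and the cofactor tetrahydrobiopterin. The NOS3 enzyme is best known from the lining of blood vessels, where calmodulin and HSP90 activate it, caveolin-1 holds it inactive, and the nitric oxide it makes raises cyclic GMP in neighbouring smooth muscle. In liver it is known mainly from the sinusoidal endothelial cells rather than from hepatocytes. Of the 3 listed synthase genes, only 1, NOS3, was in the table of normalized reads, so NOS1 and NOS2 could not be analysed.

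In GRCh38.p14, RefSeq places NOS3 on chromosome 7 from 150991017 to 151014588 on the plus strand. ATG9B lies at 151012209 to 151024499 on the minus strand, so 2380 bp of the genes overlap. The sources used here give neither whether the counting used strand nor where in NOS3 its oligo pair binds. Whether ATG9B RNA added to the NOS3 reads was not tested. The oligo sequences themselves were not available here. ATG9B itself had a read in 4 of 32 libraries, with at most 4.71 normalized reads, and was listed at 0 in all 10 libraries of 24 h, where NOS3 was highest. The 300 bases around a RefSeq start of NOS3 at 150993782 are shown because they hold the stretch before a start of the gene whose level is followed here, at chr7:150993532-150993831 on the plus strand, in lower case with 3 features in capitals. In order these are CTTATC, which is the GATA motif GATAAG read on the other strand, the GC box GGGCGG, and the ATG start codon, 22 bases after the start.

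NOS3 promoter: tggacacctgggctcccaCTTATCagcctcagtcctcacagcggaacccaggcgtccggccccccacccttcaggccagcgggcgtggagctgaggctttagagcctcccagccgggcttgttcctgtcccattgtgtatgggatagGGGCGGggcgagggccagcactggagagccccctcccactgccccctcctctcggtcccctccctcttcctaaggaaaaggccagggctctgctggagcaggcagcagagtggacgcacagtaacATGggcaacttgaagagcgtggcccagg

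This window is 65.3% G or C. Searched on both strands, the GC box began at position -103 and the GATA motif at position -232 relative to the start, and the motifs do not overlap. The TATA box letters TATAAA did not occur. Of 35116 RefSeq windows of the same length, 45.0% held GGGCGG, 6.36% held GATAAG and 11.5% held TATAAA. A match of letters is a description of this window only.

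Totals ran from 1313855 to 6735072 reads a library, with a median of 3373855, and 1 read was worth 0.461 to 2.38 normalized reads. All 10 hepatocyte markers, among them albumin and alpha-fetoprotein, had reads in every library, and their summed level lay between 158943 and 396451 normalized reads. The pair of NoNP libraries at 24 h was the least alike of any group (Pearson 0.796 across tested genes), and bPEI replicate B at 6 h followed with a mean of 0.851 with its group, while the other libraries lay at 0.879 or above. No source says whether replicates were separate cultures, and every p-value measures only the spread between these samples, which may be technical.

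In medium, NOS3 was low at 6 h, almost undetected at 12 h and far higher at 24 h, when it made up 161 of 3435839 reads. At 6 h the NoNP libraries held 8.95, 12.9 and 11.5 normalized reads. At 12 h they held 2.32, 1.12 and 1.75, which rest on 4, 2 and 2 reads. At 24 h they held 124 and 183. The times did not overlap, and the middle time was the lowest. The group means were 11.1 ± 2.02 (SD, n = 3), 1.73 ± 0.599 (SD, n = 3) and 153 ± 41.8 (SD, n = 2) normalized reads. The mean at 24 h was thus 88.5 times that at 12 h and 13.8 times that at 6 h, and the mean at 6 h was 6.43 times that at 12 h. These are the values that chose the gene, and among the 9324 genes with a mean of at least 5 normalized reads, 18.7% also had both NoNP libraries of 24 h above all 3 of 12 h. The counts behind the middle time are few: 8 NOS3 reads among 14363718 in all, which as a pooled level is 1.72 normalized reads with an exact 95% Poisson interval of 0.743 to 3.39, covering counting error only. As these are lysates of whole wells, fewer cells with NOS3 and less NOS3 RNA per cell cannot be told apart.

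**Figure D1:**
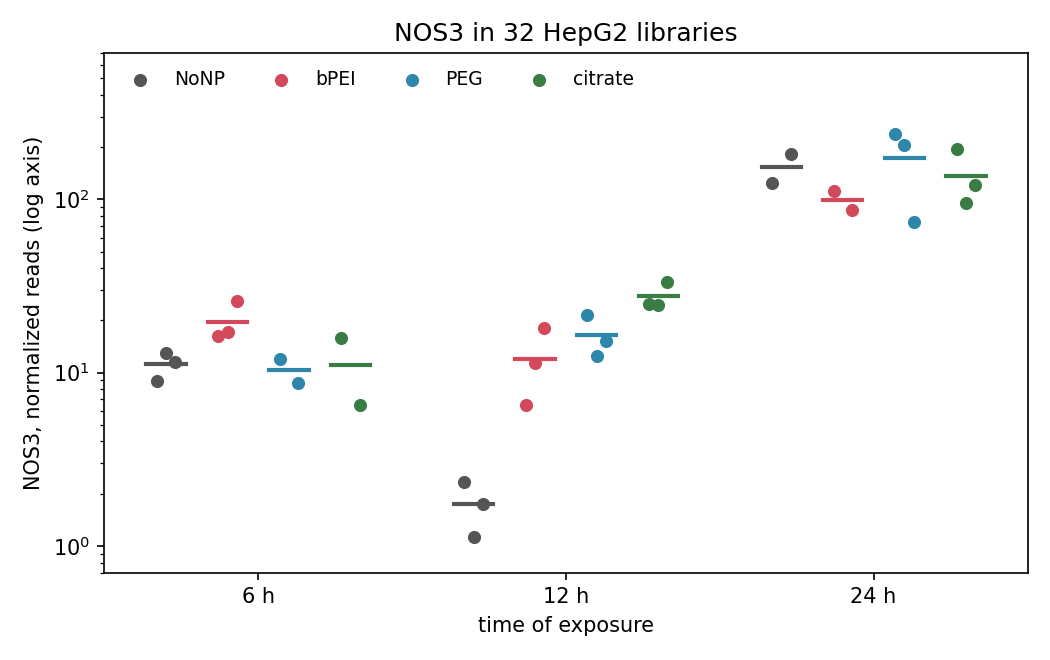
Normalized NOS3 reads in each of 32 libraries on a log axis, by hour and exposure; points are libraries and bars are group means. All libraries of 24 h, from 74.5 to 240, lie above all libraries of the earlier times, and the NoNP libraries of 12 h, from 1.12 to 2.32, lie below all others.

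In cells exposed to coated silver, NOS3 was also high at 24 h with each coating, but no coated group was as low at 12 h as medium. With bPEI, NOS3 had 16.2, 17.1 and 25.8 normalized reads at 6 h. It had 6.46, 11.4 and 18.2 at 12 h, and 112 and 86.5 at 24 h. The libraries of 6 and 12 h overlapped, and both of 24 h stood above them. With PEG, NOS3 had 11.9 and 8.75 normalized reads at 6 h. It had 21.6, 12.5 and 15.3 at 12 h, and 240, 206 and 74.5 at 24 h. Each later time lay above the one before, narrowly between 6 and 12 h, and replicate C was the lowest of the 3 at 24 h. With citrate, NOS3 had 15.8 and 6.49 normalized reads at 6 h. It had 24.9, 24.5 and 33.1 at 12 h, and 196, 95.2 and 121 at 24 h. Here too the times did not overlap.

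NOS3 rose from 12 to 24 h with all 3 coatings. On the log2(value + 1) scale the rise was 3.04 with bPEI (95% interval 1.90 to 4.17), an 8.20-fold change, with a limma adjusted p of 0.00119. With PEG it was 3.19 (2.17 to 4.20), or 9.11-fold, with a limma adjusted p of 3.28e-05. With citrate it was 2.22 (1.21 to 3.24), or 4.67-fold, with a limma adjusted p of 0.00295. In every coating the lowest library of 24 h was above the highest of 12 h. Of all tested genes, limma called 3.37% in bPEI, 14.8% in PEG and 11.7% in citrate over this interval. Averaged over the coatings, the rise was 2.82 (2.21 to 3.42), or 7.04-fold, with a limma adjusted p of 8.99e-09, where 29.5% of genes were called. A two-sided exact permutation test that rearranged the libraries between 12 and 24 h within each coating gave p = 0.00025, the smallest that its 4000 arrangements allow. Libraries of 24 h above those of 12 h in each of the 3 coatings were found for 559 genes, 6.00% of those tested.

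From 6 to 12 h no coating passed the test. The log2 difference was -0.74 with bPEI (95% interval -1.76 to 0.27), with a limma adjusted p of 0.27. It was 0.61 with PEG (-0.53 to 1.74), with a limma adjusted p of 0.551. It was 1.33 with citrate (0.20 to 2.47), where the limma p was 0.0224 before and 0.178 after adjustment. The estimate was below 0 in bPEI and above 0 in PEG and citrate, and whether these differ from each other was not tested. The share of genes called over this interval was 28.7% in bPEI, 9.82% in PEG and 5.08% in citrate. The average over coatings was 0.40 (-0.23 to 1.03), with a limma adjusted p of 0.324 against 36.7% of genes called and a two-sided exact permutation p of 0.263.

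**Figure D2:**
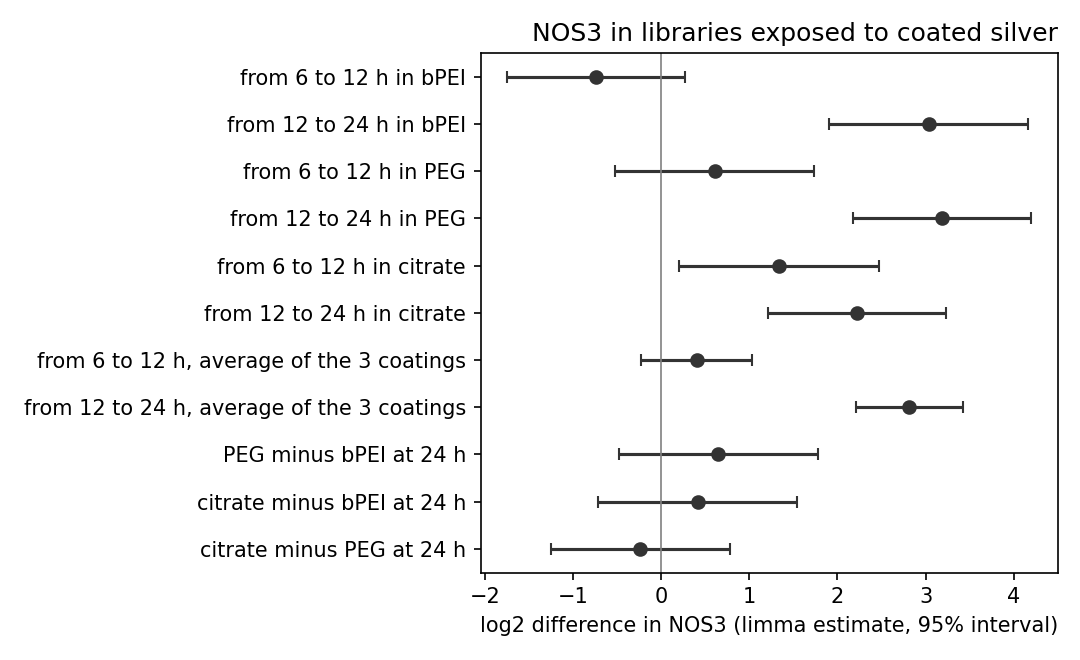
Log2 differences in NOS3 among the libraries exposed to coated silver, as limma estimates (points) with 95% intervals (lines). The 12 to 24 h differences lie between 2.22 and 3.19 with intervals above 0, whereas the pairs of coatings at 24 h lie between -0.24 and 0.65 with intervals that hold 0.

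No difference between coatings in NOS3 passed a test at any hour. The means at 6 h were 19.7 ± 5.32 (SD, n = 3) normalized reads in bPEI, 11.1 ± 6.55 (SD, n = 2) in citrate and 10.3 ± 2.23 (SD, n = 2) in PEG. All bPEI libraries lay above those of PEG and citrate, narrowly, and the limma F test among coatings gave an adjusted p of 0.986, with 0.107% of genes called. At 12 h the order was citrate, 27.5 ± 4.86 (SD, n = 3), PEG, 16.5 ± 4.67 (SD, n = 3), and bPEI, 12.0 ± 5.89 (SD, n = 3). Citrate lay above both others without overlap and PEG overlapped bPEI, but the limma F test gave an adjusted p of 0.438, with 0.418% of genes called. At 24 h the order was PEG, 174 ± 87.4 (SD, n = 3), citrate, 137 ± 52.2 (SD, n = 3), and bPEI, 99.1 ± 17.8 (SD, n = 2), and all 3 overlapped. The limma F test there gave an adjusted p of 0.89, with 0.150% of genes called. The share of genes whose libraries separated the coatings without overlap was not counted at any hour.

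The 3 pairs of coatings at 24 h left wide intervals. PEG minus bPEI was 0.65 on the log2 scale (95% interval -0.48 to 1.78), with a limma adjusted p of 0.779. Citrate minus bPEI was 0.41 (-0.72 to 1.54), with a limma adjusted p of 0.829. Citrate minus PEG was -0.24 (-1.25 to 0.78), with a limma adjusted p of 1, and turned to 0.08 without PEG replicate A of 24 h. In these pairs limma called 0.0536%, 0.182% and 0.0107% of genes, so few genes of any kind separated the coatings. The intervals reach beyond a log2 difference of 1 in every pair and do not show that the coatings act alike on NOS3. The interaction of coating with time from 12 to 24 h had a limma adjusted p of 0.989 for NOS3. It was called for 0 genes, or 0.00%, by limma, with 472 genes at an unadjusted p under 0.05, and for 0 genes by edgeR.

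Set beside medium, the coated libraries stood apart most at 12 h. All 9 coated libraries, from 6.46 to 33.1 normalized reads, lay above all 3 NoNP libraries, as did 210 genes or 2.25% of those tested. The coated means were 6.94 times the NoNP mean in bPEI, 9.52 times in PEG and 15.9 times in citrate. Depth at 12 h ran from 3534323 to 5439322 reads in NoNP, inside the range of 2493929 to 6735072 over all libraries of that time. At 6 h, bPEI lay above all NoNP libraries with a mean 1.77 times theirs, and PEG and citrate overlapped NoNP. At 24 h the 2 bPEI libraries lay below both of NoNP, narrowly, at 112 and 86.5 against 124 and 183, with the NoNP mean 1.55 times the bPEI mean. The share of genes that separated bPEI from NoNP in this way at 6 or 24 h was not counted. PEG and citrate at 24 h spanned the NoNP values. These comparisons use the libraries that chose the gene and carry no test.

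In medium NOS3 was lower at 12 h than at 6 h, and with PEG and citrate it was higher at 12 h. A rule was made after these NOS3 values were seen. It asked for libraries of 12 h above those of 6 h in PEG and in citrate and below them in NoNP, each without overlap. The rule was met by 4 tested genes, 0.0429%, with NOS3 among them by construction. It also uses the NoNP libraries of 12 h that chose the gene. Whether so few libraries a group would give as many genes by order alone was not tested. The 4 genes are NOS3, LIPG, which encodes endothelial lipase, PBX2, a homeobox transcription factor, and WRAP73, a WD repeat protein. LIPG went from 16.2 to 7.88 normalized reads in NoNP and from 21.4 to 42.0 in PEG and 23.5 to 35.0 in citrate. Unlike NOS3, LIPG was not high at 24 h, with group means of 4.33 to 16.1 normalized reads.

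**Figure D3:**
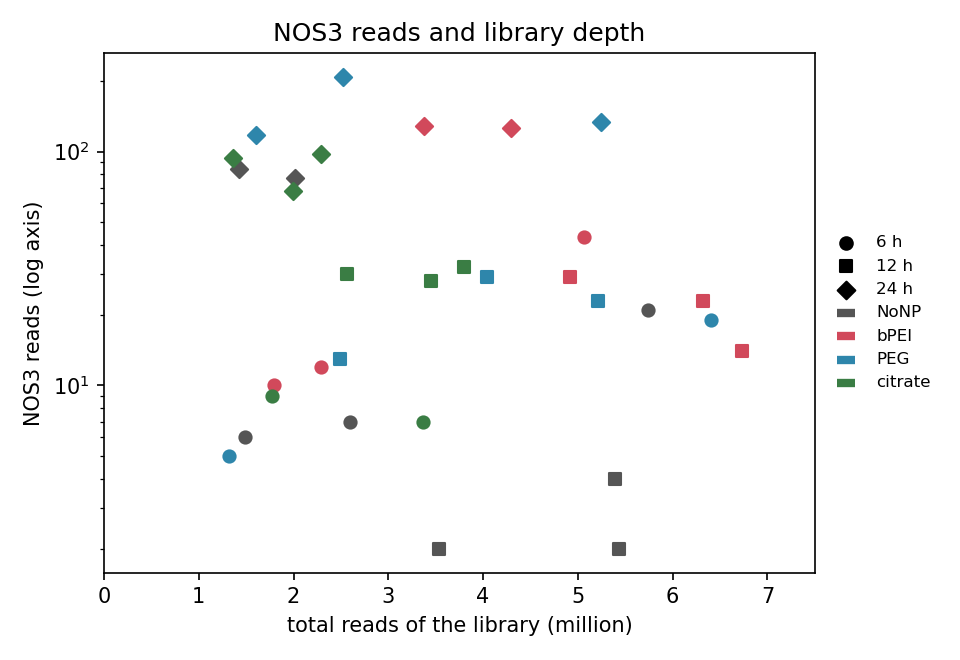
Raw NOS3 reads (log axis) against the total reads of each library, on an axis scaled by 1e6; shapes are hours and colours are exposures. Every library of 24 h holds more NOS3 reads than any library of 6 or 12 h, and the NoNP libraries of 12 h hold 2 to 4 NOS3 reads at totals of 3534323 to 5439322.

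Endothelial markers were looked at because NOS3 is known from endothelium. Of 12 listed, 4 were in the table: ESAM and PECAM1, which are adhesion molecules of endothelial junctions, TIE1, an endothelial receptor tyrosine kinase, and EGFL7, a secreted endothelial protein. Other defining markers such as VWF and CDH5 were listed but not in the table, so they could not be analysed. The summed level of the 4 ran from 17.1 to 61.2 normalized reads at 6 h, from 107 to 361 at 12 h and from 165 to 543 at 24 h, and ESAM made up most of it in 31 of 32 libraries. In NoNP it was 32.3 to 34.5, 107 to 121 and 281 to 401 at the 3 times. That course is mainly ESAM's, with NoNP means of 21.8, 106 and 318 normalized reads at 6, 12 and 24 h. PECAM1 had NoNP means of 7.86, 4.94 and 10.5 and TIE1 of 2.18, 1.55 and 10.0, both lowest at 12 h like NOS3. EGFL7 had 1.28, 2.04 and 2.41. Those smaller values rest on few reads, and their NoNP libraries of 6 and 12 h overlapped. Over all exposures TIE1 had 0 to 4.39 at 6 h, 0 to 6.24 at 12 h and 4.81 to 81.2 at 24 h. It was at 0 in 5 of 10, 3 of 12 and 0 of 10 libraries. From 12 to 24 h the TIE1 means went from 2.49 to 15.7 in bPEI, 1.66 to 38.3 in PEG and 4.64 to 45.9 in citrate. PECAM1 reached at most 27.1 normalized reads. EGFL7 was at 0 in 8 of 10 libraries at 6 h, 6 of 12 at 12 h and 8 of 10 at 24 h. The part of these genes in the NOS3 result was not tested.

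By likeness, the genes whose course over the 12 group means was most like that of NOS3 were led by ITGA3, an integrin subunit that binds laminin, with a Pearson correlation of 0.971 on the log2 scale. PSD3 (0.953) and PSD4 (0.925), exchange factors for ARF6, ARHGAP40 (0.945), SLC37A2 (0.943), a sugar phosphate transporter, and SPOCD1 (0.940) followed. SDC1 (0.930), the surface proteoglycan syndecan-1, C16orf45 (0.927), MYO6 (0.925), an unconventional myosin, and TRIP10 (0.925), a membrane-curving adaptor of CDC42, completed the 10. Of 9323 other tested genes, 27 had a correlation over 0.9. In medium the mean was lowest at 12 h in 8 of the 10, all but ARHGAP40 and SPOCD1; in ITGA3 it was 7.84, 0.583 and 70.8 normalized reads at 6, 12 and 24 h. In citrate ITGA3 had 2.68, 14.9 and 64.1, which like NOS3 stepped up at each time. The most opposite courses were those of ZFR (-0.962), a zinc finger RNA-binding protein, UBE2B (-0.937), a ubiquitin-conjugating enzyme, PDCL3 (-0.932), HIST2H2AA3 (-0.931) and ACSL1 (-0.928), a fatty acid ligase. HIST2H2AA3 has a near-identical copy, so its reads are uncertain. These genes were picked for their likeness and all points come from the same libraries for each pair of genes, so no p is given.

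**Figure D4:**
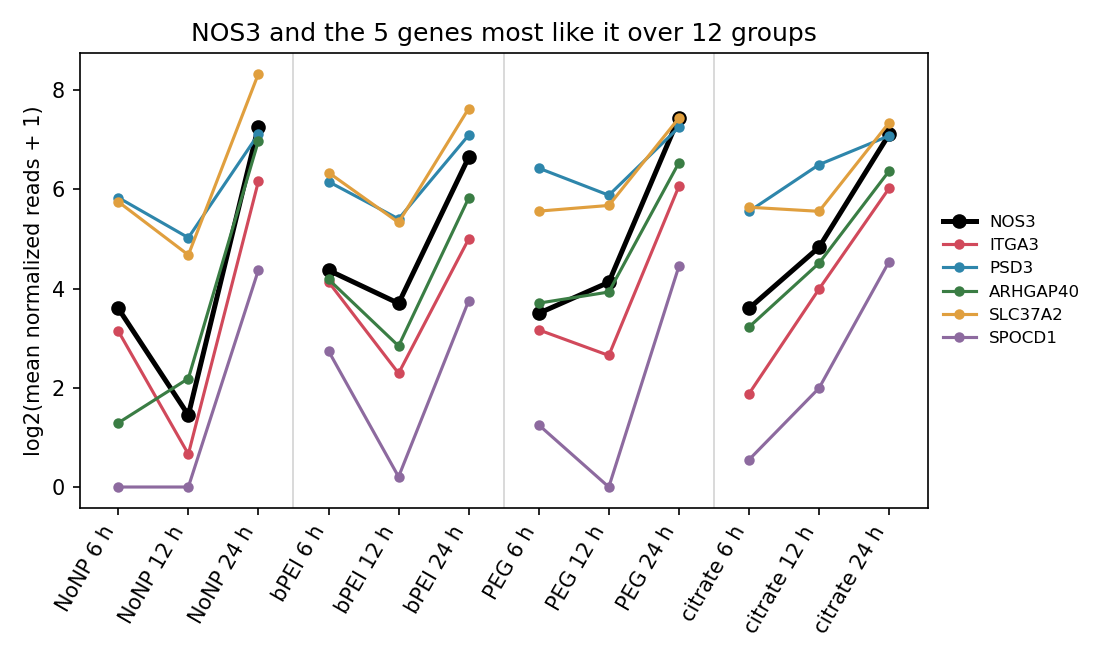
Log2 of the group mean of normalized reads plus 1 for NOS3 and the 5 genes most correlated with it, over 12 groups. All 6 courses end highest at 24 h in each exposure, and NOS3, ITGA3, PSD3 and SLC37A2 are lower at 12 h than at 6 h in NoNP.

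Among the genes that activate, supply or answer NOS3, most were not called between 12 and 24 h. The share called lay a little above that of all tested genes in each exposure, a gap of few genes that was not tested. Of 63 listed pathway symbols, 56 were in the table and 46 passed the filter on low values, and a member that passed only through a group where it was high is counted among the 46. From 12 to 24 h in NoNP, limma called 4 higher and 6 lower, or 21.7% against 18.3% of all tested genes. In bPEI it called 1 higher and 2 lower, or 6.52%, against the 3.37% of all genes given above. In PEG it called 4 higher and 7 lower, or 23.9% against 14.8%, and in citrate 5 higher and 2 lower, or 15.2% against 11.7%. The median log2 difference of the list was -0.07, -0.10, 0.01 and -0.11 in NoNP, bPEI, PEG and citrate, beside -0.11, 0.00, -0.01 and -0.03 for all genes. Single libraries weighed on these counts: 10 in NoNP became 2 without replicate B of 24 h, and 3 in bPEI became 1 without any library of 12 h or without replicate B of 24 h. The 11 in PEG became 5 or 4 without replicate A or B of 12 h and 6 or 5 without replicate A or C of 24 h, and the 7 in citrate became 2 without replicate B or C of 12 h and 3 without replicate A or C of 24 h.

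Among 16 tested binding partners and modifiers of the enzyme, limma called 1 higher and 1 lower in NoNP and 1 lower in bPEI. It called 3 lower and 1 higher in PEG and 2 higher in citrate. In that order of exposures these are 12.5%, 6.25%, 25% and 12.5%, beside 18.3%, 3.37%, 14.8% and 11.7% of all tested genes. CALM2, one of the genes for calmodulin, fell with PEG from 4388 to 2840 normalized reads (limma adjusted p 0.0161) and with bPEI from 5299 to 3078 (limma adjusted p 0.0163). HSP90AA1 fell with PEG from 5427 to 3767 (limma adjusted p 0.0376). CALM2 in PEG was not called without replicate A of 12 h or C of 24 h, and CALM2 in bPEI and HSP90AA1 in PEG were not called without most single libraries. CYB5R3, a cytochrome b5 reductase, rose with PEG from 435 to 652 (limma adjusted p 0.0383) and with citrate from 449 to 708 (0.0268). DYNLL1, a dynein light chain, rose with citrate from 28.8 to 97.6 (limma adjusted p 0.0264). PPP2CA, a catalytic subunit of protein phosphatase 2A, fell in NoNP from 404 to 191 (limma adjusted p 0.00535). The CYB5R3 calls were each lost without 4 single libraries, the DYNLL1 call without replicate B or C of 12 h or A of 24 h, and the PPP2CA call without replicate B of 24 h. CAV1, which encodes the inhibitor caveolin-1, had 0, 0 and 3.50 normalized reads in NoNP at 12 h and 46.5 and 41.3 at 24 h. With the coatings its means at 24 h were 7.17 to 7.57 normalized reads. CAV1 passed the filter on low values only through NoNP at 24 h, with a mean of 5.55 over all libraries and 2.99 without that group. It is therefore given as values with no test, although it is the gene counted as higher in NoNP.

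Of 6 tested genes of tetrahydrobiopterin supply, QDPR, which recycles the cofactor, was the one called. It rose in NoNP from 124 to 267 normalized reads (limma adjusted p 0.0438), in PEG from 103 to 194 (0.0405) and in citrate from 121 to 217 (0.0497). All 3 of these limma calls were lost under 6 to 9 of the alternative settings, several of them the loss of 1 library. GCH1, the first and rate-limiting enzyme of the route, had 103 and 41.3 normalized reads in NoNP at 24 h against 98.0, 105 and 84.0 at 12 h, and was not called in any exposure. The share of the 6 called was 16.7% in NoNP, PEG and citrate and 0% in bPEI. Of all tested genes it was 18.3% in NoNP, 14.8% in PEG, 11.7% in citrate and 3.37% in bPEI.

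Of 10 tested genes of arginine supply and use, limma called 30% in NoNP, 10% in bPEI, 20% in PEG and 20% in citrate. The shares of all tested genes were 18.3%, 3.37%, 14.8% and 11.7% in that order. AGMAT, the gene for agmatinase, which splits a product of arginine, fell in all 4 exposures from 12 to 24 h. In NoNP it went from 1814, 1822 and 2246 to 746 and 737 normalized reads, with a limma adjusted p of 1.44e-06. With PEG the means were 2802 and 1402 (limma adjusted p 5.00e-05), with citrate 2395 and 1241 (0.000156) and with bPEI 2589 and 1640 (0.0344). The bPEI call was lost without any 1 library of those groups. ARG1, the liver arginase that competes with NOS3 for arginine, fell in NoNP from 32.4 to 3.21 normalized reads (limma adjusted p 0.00722), in PEG from 24.9 to 6.13 (0.022) and in citrate from 22.5 to 4.50 (0.0321). The ARG1 call in NoNP was lost without replicate B of 24 h, and in PEG and citrate without most single libraries.

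Among 5 tested genes of cyclic GMP signalling and nitric oxide removal, limma called 20% in NoNP, bPEI and PEG and 40% in citrate. The shares of all tested genes from 12 to 24 h were 18.3% in NoNP, 3.37% in bPEI, 14.8% in PEG and 11.7% in citrate. CYGB rose with each coating. It encodes cytoglobin, a haem protein that can consume nitric oxide. With bPEI it had 32.3, 29.8 and 33.2 normalized reads at 12 h and 196 and 159 at 24 h, a rise of 5.42-fold (limma adjusted p 0.000892). With PEG it had 19.4, 13.1 and 27.1 at 12 h and 126, 148 and 109 at 24 h, a rise of 6.39-fold (limma adjusted p 1.15e-05). With citrate it had 42.1, 28.8 and 17.7 at 12 h and 200, 182 and 129 at 24 h, a rise of 5.84-fold (limma adjusted p 4.17e-05). No coated group of 24 h overlapped its group of 12 h, and these calls held under all alternatives run. In NoNP, CYGB had 11.0, 30.9 and 16.6 at 12 h and 32.1 and 47.8 at 24 h, with a limma adjusted p of 0.0796.

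Of 9 tested transcription factors described at the NOS3 gene, limma called 3 lower in NoNP and 2 lower and 1 higher in PEG. That is 33.3% in each, and none was called in bPEI or citrate. The shares of all tested genes were 18.3% in NoNP, 14.8% in PEG, 3.37% in bPEI and 11.7% in citrate. ELF1 fell in NoNP from 923 to 339 normalized reads. SP3 fell in NoNP from 3096 to 1956 and in PEG from 2473 to 1417. These ELF1 and SP3 calls were each lost under some alternatives. KLF2, a factor known to raise NOS3 in endothelium, fell from 12 to 24 h in NoNP and PEG. It had 17.4, 4.49 and 21.0 normalized reads in NoNP at 12 h and 0 in both libraries of 24 h. That is 62 reads against 0, at least 4.81-fold lower when the group at 0 is given 3 reads (limma adjusted p 0.0029). With PEG, KLF2 went from 56 reads to 1, a ratio of 45.1 with an exact counting interval of 7.76 to 1812 (limma adjusted p 0.00116). With bPEI it had 0 and 8.24 at 24 h and with citrate 6.24, 7.0 and 2.46, and neither was called. The KLF2 call in NoNP was lost with quantile normalization, with 1 variance weight per group and when only the groups compared were fitted. HIF1A, the oxygen-regulated factor, rose with PEG from 18.2 to 66.2 normalized reads (limma adjusted p 0.04997, just under the threshold), a call lost without any 1 library of those groups.

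**Figure D5:**
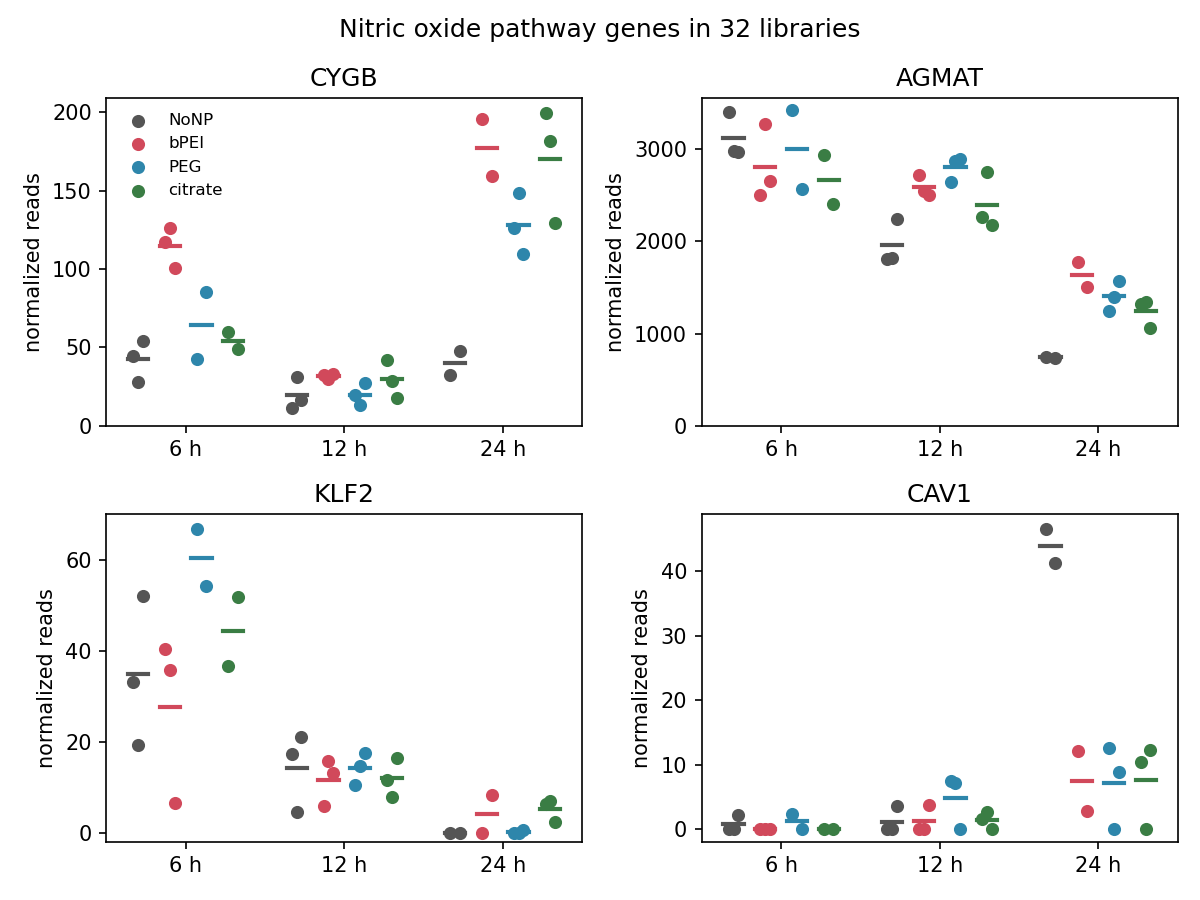
Normalized reads of CYGB, AGMAT, KLF2 and CAV1 in each library by hour and exposure; bars are group means. At 24 h CYGB and AGMAT are higher in all coated libraries than in both NoNP libraries, and CAV1 is above 40 in NoNP alone.

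At 24 h, few pathway genes separated the coatings from medium. Limma called 2 higher and 2 lower in bPEI, 8.70% of the 46, beside 4.55% of all genes. It called 2 higher in PEG, 4.35% beside 2.83%, and 2 higher and 1 lower in citrate, 6.52% beside 4.20%. The 3 comparisons share the same NoNP libraries. CYGB and AGMAT were higher in all 3: the CYGB means were 177, 128 and 170 normalized reads in bPEI, PEG and citrate against 40.0 in NoNP, with limma adjusted p of 0.00628, 0.0277 and 0.00472. The AGMAT means were 1640, 1402 and 1241 against 742, with limma adjusted p of 0.000472, 0.00347 and 0.0156. In bPEI, VASP, a cytoskeletal protein phosphorylated through cyclic GMP, was lower, with 1252 against 2733 (limma adjusted p 0.00639), as was ARG2, the mitochondrial arginase, with 340 against 892 (0.0266). SLC7A2, an arginine transporter, was at 0 in citrate against 13.7, at least 9.27-fold lower with 3 reads given to the group at 0 (limma adjusted p 0.0299), a call lost without any 1 library.

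These 24 h calls rest on 2 NoNP libraries that differ from each other. When only the groups compared were fitted, limma called 0 of the 46 in each comparison, with 5, 3 and 7 genes at an unadjusted p under 0.05 in bPEI, PEG and citrate, where edgeR on all groups called 4, 2 and 2. Leaving out single libraries gave 8 calls in bPEI without NoNP replicate A and 2 or 1 without bPEI replicate A or B, 5 in PEG without NoNP replicate B and 1 without PEG replicate B or C, and 1 in citrate without citrate replicate A or B. The ARG2 call in bPEI was lost without either bPEI library or NoNP replicate A, and the VASP call without bPEI replicate B or NoNP replicate B. The AGMAT call in citrate was lost without citrate replicate A or B. The CYGB call in bPEI was lost without either bPEI library, and in PEG without NoNP replicate A or any PEG library.

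Of 13 neighbours of NOS3 on chromosome 7 in the table, 8 were tested between 12 and 24 h. Limma called 1 in NoNP, or 12.5% against 18.3% of all genes, 0 in bPEI against 3.37%, 1 in PEG, or 12.5% against 14.8%, and 3 in citrate, or 37.5% against 11.7%. In bPEI 1 neighbour had an unadjusted limma p under 0.05, and edgeR called 0 there and 0 in NoNP. FASTK, a kinase-like mitochondrial RNA regulator 62036 bp from NOS3, rose from 12 to 24 h in PEG, from 74.4 to 193 normalized reads (limma adjusted p 0.00074), and in citrate, from 79.4 to 273 (4.17e-05). In bPEI FASTK had means of 94.0 and 162 and in NoNP 82.1 and 151, with limma adjusted p of 0.185 and 0.0554. In citrate ABCF2 fell from 1518 to 946 (limma adjusted p 0.0496). SLC4A2, an anion exchanger, had a mean of 13.2 normalized reads in citrate at 12 h and was at 0 at 24 h. It is counted among the 3 but given with no test, since it passed the filter only through citrate at 12 h, with a mean of 5.36 over all libraries and 4.55 without that group. In NoNP CHPF2, a chondroitin polymerizing factor, fell from 29.1 to 6.52 (limma adjusted p 0.0152). ABCF2 was not called without any 1 library, nor CHPF2 without NoNP replicate A of 24 h or by edgeR. ABCB8, CDK5, TMUB1 and NUB1 were called in no exposure.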

How the data were processed

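TempO-Seq profiles of HepG2 lysates were used from 32 libraries in 12 groups. The authors deposited a table of normalized signal per gene. Each value is a whole number of reads divided by 1 size factor per library: 100% of values came out whole within 0.01 reads. The sources used here do not give the aligner, probe panel, normalization tool or strand setting. Values were analysed as log2(value + 1) in limma 3.58.1 (R 4.3.3), with 12 group means, a trend in the prior variance, robust fitting and 20 residual degrees of freedom. Genes with a mean of at least 5 normalized reads over all libraries, 9324 of 13133, were tested, with Benjamini-Hochberg adjusted p over those genes and a threshold of 0.05. A fold change on this scale understates that of low genes.

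The gene and the lists were chosen with earlier results of these data known. The named genes are NOS3, members of the lists, and the 10 most and 5 least correlated genes. Alternatives were a pseudocount of 5, no filter, a minimum mean of 20, equal library totals, quantile normalization, edgeR 4.0.16 on the recovered reads, a replicate block, 1 variance weight per group, only the groups compared, 2 libraries left out together, and each library left out in turn. The code was tested on simulated data. The promoter is from RefSeq's GRCh38.p14 table, which holds 2 windows for NOS3.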

Additional observations from a re-analysis of the deposited data

Results flagged for a closer look

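For some genes the libraries of 2 times did not overlap in either of 2 exposures, with opposite directions, and the difference between exposures was not tested. NOS3 was searched over both intervals, and the tested pathway and neighbouring genes from 12 to 24 h, in all pairs of exposures. The share of all genes meeting this rule was not counted, so the rule does not set these genes apart from others. With 2 or 3 libraries a group, libraries can also separate by order alone. From 6 to 12 h the log2 difference of NOS3 was -2.16 in NoNP and 0.61 in PEG, a gap of 2.77. The corresponding value in citrate was 1.33, a gap of 3.50 from NoNP. From 12 to 24 h that of the transcription factor gene SP1 was -1.69 in NoNP and 0.70 in bPEI, a gap of 2.39, at group means of only 2.32 to 7.86 normalized reads. Over the same interval that of the neighbouring gene CHPF2 was -3.00 in NoNP and 0.39 in bPEI, a gap of 3.38. For SP1 the closest libraries of 12 and 24 h had 6.74 and 6.42 normalized reads in NoNP and 3.23 and 4.12 in bPEI.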

How the results depend on the processing

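The NOS3 results kept their direction and their side of the threshold under all alternatives that could be run, except citrate minus PEG at 24 h, which was not called and reversed to 0.0782 without PEG replicate A of 24 h (range -0.759 to 0.0782 with single libraries left out). The limma or edgeR adjusted p of the 12 to 24 h rise ran from 2.69e-05 to 0.0426 in bPEI, 2.29e-06 to 0.000798 in PEG, 0.000433 to 0.0257 in citrate and 1.36e-10 to 3.55e-07 for the average. The counts of called pathway genes moved more. With NoNP replicate B of 24 h and bPEI replicate B of 6 h left out together, the 12 to 24 h counts were 4 in NoNP, 5 in bPEI, 18 in PEG and 13 in citrate, and the counts against NoNP at 24 h were 9 in PEG and 10 in citrate. With 1 variance weight per group, limma counted 1 in NoNP and 7 in bPEI from 12 to 24 h, and 0 in bPEI, PEG and citrate against NoNP, with 4, 2 and 3 genes at an unadjusted p under 0.05. When only the groups compared were fitted, the counts were 1 in NoNP and 9 in bPEI from 12 to 24 h and 0 in all 3 against NoNP. With single libraries left out, the 12 to 24 h counts ran from 2 to 11 in NoNP, 1 to 2 in bPEI, 4 to 10 in PEG and 2 to 6 in citrate, and those against NoNP from 1 to 8 in bPEI, 1 to 5 in PEG and 1 to 4 in citrate; where a group was left with 1 library, it was assumed to vary like the others. Replicate letters did not clearly pair the samples: 18 of 156 same-letter pairs correlated over 0.1. The median correlation was 0.00572 for same-letter pairs and -0.0033 for other pairs. Of 3 letters, 17 of 32 libraries correlated best with their own, and whether this marks a weak pairing was not tested. With a replicate block, the log2 difference of NOS3 from 12 to 24 h in bPEI was 3.01, of NOS3 from 12 to 24 h in PEG 3.19 and of NOS3 from 12 to 24 h in citrate 2.22, and the pathway counts were 9 in NoNP, 3 in bPEI, 11 in PEG and 6 in citrate. The NoNP value of NOS3 at 12 h rests on 8 reads of 14363718.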
